A study of Mus musculus with 12 samples.

Results

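The genes described here are Ighm, the constant region of the immunoglobulin mu heavy chain, and 6 further genes of B cells, namely Ighd, Igkc, Cd79a, Cd79b, Ms4a1 and Ebf1, as measured in bulk RNA-seq libraries of microglia sorted from mouse brain. They are 7 of the 55401 gene identifiers in the deposited count tables. They were chosen by their measured counts in WT-Sham, because Ighm was high in this group of uninjured control mice while genes that mark B cells, such as Cd79a, Ms4a1 and Ebf1, were low there, so their levels there, and every difference from it, are given below as a description without a test. All 7 were found once in each of the 12 count tables.

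The study compared 4 groups of 3 libraries each. WT-Sham and WT-tFCI came from CX3CR1 wt/wt:HDAC3 loxp/loxp mice, and miKO-Sham and miKO-tFCI from CX3CR1 CreER/wt:HDAC3 loxp/loxp mice, so that all groups carried the floxed Hdac3 alleles and the miKO groups alone carried the tamoxifen-inducible Cre, which occupies 1 Cx3cr1 allele and is active in cells that use the Cx3cr1 promoter, monocytes included. Per the study's methods, the mice were male and received tamoxifen on 5 consecutive days at 6 to 8 weeks of age, with surgery at least 1 month later. tFCI is transient focal cerebral ischemia by occlusion of the middle cerebral artery for 60 min, Sham is the same exposure of the artery without occlusion, and cells were isolated on day 3. Each library held the CD45int CD11b+ cells of 3 to 4 hemispheres combined, so that the p-values measure the spread between such combined samples. The labels put replicate 1 of every group in batch 1 and replicates 2 and 3 in batch 2. They do not say what the batch was.

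Ighm encodes the heavy chain of IgM, which B cells carry on their surface in a membrane form and plasma cells release in a secreted form. In a B cell, V, D and J segments are joined in the DNA upstream of Ighm, and the joined exon is then spliced either to Ighm or to Ighd, the constant region of IgD. A light chain, most often kappa (Igkc), completes the antibody, and the signal is carried into the cell by the partner chains CD79A and CD79B. Microglia are resident macrophages of the brain that arise from yolk sac precursors, and they are not known to join these segments.

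The libraries held between 7697864 and 9452222 counts on genes, which were 30.7% to 38.5% of all counted fragments. The targeted gene Hdac3 was at 20.9 to 25.8 CPM (counts scaled to the library's depth on genes with TMM) in miKO-Sham against 35 to 46.4 CPM in WT-Sham, and at 27.1 to 36 CPM in miKO-tFCI against 43.9 to 54.0 CPM in WT-tFCI. The label of microglia was borne out by a list of 12 microglial markers, all of them detected in every group, whose summed level was 37027 to 43507 CPM for WT-Sham, 35544 to 38723 CPM in miKO-Sham, 27223 to 30359 CPM for WT-tFCI and 14382 to 25234 CPM in miKO-tFCI. A count of 0 allows up to 3 counts, or 0.308 to 0.416 CPM in these libraries, and all such limits and the intervals on counts given below cover counting error only. Replicate 1 stood apart from the other libraries of its group in WT-Sham, WT-tFCI and miKO-tFCI, and replicate 3 did so in miKO-Sham.

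In the GRCm38 genome with GENCODE M21 annotation, Ighm (ENSMUSG00000076617.9) lies on the minus strand at chr12:113418558-113422730 and Ighd (ENSMUSG00000104213.5) follows it downstream at chr12:113406604-113416324. Igkc (ENSMUSG00000076609.2) is at chr6:70726435-70726966, Cd79a (ENSMUSG00000003379.7) at chr7:24897381-24902197, Cd79b (ENSMUSG00000040592.11) at chr11:106311341-106314762, Ms4a1 (ENSMUSG00000024673.9) at chr19:11249675-11266241 and Ebf1 (ENSMUSG00000057098.14) at chr11:44617317-45008091. None of the 7 genes shared exon sequence with an annotated gene of the opposite strand. The Ighm row of the count tables adds up 2 forms of the mRNA. These forms differ at the 3′ end, and the following stretches are shown because the counts do not tell them apart.

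The membrane form ends in exons that encode a transmembrane helix, the first of them at chr12:113418953-113419068, on the minus strand. In the secreted form exon 4 runs on into the tail at chr12:113420870-113420928, where the capitals mark its first bases, which the membrane form splices away together with the rest.
Ighm membrane exon M1: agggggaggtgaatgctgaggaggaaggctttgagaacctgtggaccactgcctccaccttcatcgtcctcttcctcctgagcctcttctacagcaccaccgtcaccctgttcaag
Ighm secreted tail: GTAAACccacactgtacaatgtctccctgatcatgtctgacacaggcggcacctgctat

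Upstream of Ighm, the J segments, which lie nearest to the constant region, had more counts in each WT-Sham library than the V segments, and a J segment is printed for that reason, beside a D segment. Ighj1, at chr12:113429781-113429833, was the heavy-chain J segment with the most counts, and its capitals mark the codons of the conserved tryptophan-glycine motif that every heavy-chain J segment carries. Ighd4-1, at chr12:113430528-113430538, was the only D segment with any count.
Ighj1: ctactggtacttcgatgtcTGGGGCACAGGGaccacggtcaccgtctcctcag
Ighd4-1: ctaactgggac

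Ighm was the most abundant of the 7 genes in WT-Sham per length of exon, and it fell in miKO-tFCI against both groups with which that could be tested. Its level in replicates 1, 2 and 3 was 385, 482 and 448 CPM in WT-Sham, 326, 324 and 417 CPM in miKO-Sham, 293, 242 and 237 CPM for WT-tFCI, and 134, 144 and 147 CPM for miKO-tFCI. The 3 miKO-tFCI libraries were the lowest of all 12, the 3 WT-tFCI libraries came next, and the 2 sham groups overlapped. The raw counts behind these levels ran from 1147 to 4363 per library.

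The mean level of Ighm was 142 ± 6.89 CPM (SD, n = 3) in miKO-tFCI against 257 ± 31.1 CPM (SD, n = 3) in WT-tFCI, a log2 fold change of -0.86 (SE 0.15, edgeR quasi-likelihood test, adjusted p = 0.00209). Against the mean of 356 ± 52.9 CPM (SD, n = 3) in miKO-Sham, its log2 fold change was -1.33 (SE 0.15, edgeR adjusted p = 9.39e-06). The groups did not overlap in either comparison, as was so for 13.3% and 21.6% of all tested genes in this direction. The difference had the same sign within both batches, at -1.13 in batch 1 and -0.72 in batch 2 for miKO-tFCI vs. WT-tFCI and at -1.28 and -1.33 for miKO-tFCI vs. miKO-Sham. As a description, Ighm was lower by a log2 fold change of -0.76 (SE 0.15) in WT-tFCI than in WT-Sham, without overlap (as for 22.9% of all tested genes), and of -0.30 (SE 0.15) in miKO-Sham than in WT-Sham, with overlap. In bulk libraries, fewer cells that carry a transcript and less of it per cell cannot be told apart.

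The fall of Ighm went with a fall of microglial markers. In miKO-tFCI vs. miKO-Sham, 11 of the 12 microglial markers passed the test as lower (of all tested genes, 13.9%). In miKO-tFCI vs. WT-tFCI 5 of 12 did so (of all tested genes, 4.71%), and none was higher in either. Among these 5 was Cx3cr1 (log2 fold change -1.84), of which the Cre occupies 1 allele in miKO mice. Cx3cr1 was also lower in miKO-Sham vs. WT-Sham (-1.68), and it is part of the marker sum. Set against the summed level of the 12 markers, Ighm stood at 5.84 to 9.33 CPM per 1000 CPM of marker sum in miKO-tFCI, at 7.95 to 10.8 in WT-tFCI, at 8.98 to 10.8 in miKO-Sham and at 10.3 to 11.8 in WT-Sham. On this scale miKO-tFCI overlapped with both WT-tFCI and miKO-Sham, whereas on the CPM scale it had not. By replicate number, miKO-tFCI was below WT-tFCI on this scale each time, at 9.33 against 10.8, 6.37 against 7.97 and 5.84 against 7.95. Against miKO-Sham it was above in replicate 1 (9.33 against 8.98) and below in replicates 2 and 3 (6.37 against 9.13 and 5.84 against 10.8). Libraries of the same number are not known to be pairs, so these orders are a description only. The part of the microglial markers in the fall of Ighm was not tested further.

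**Figure D1:**
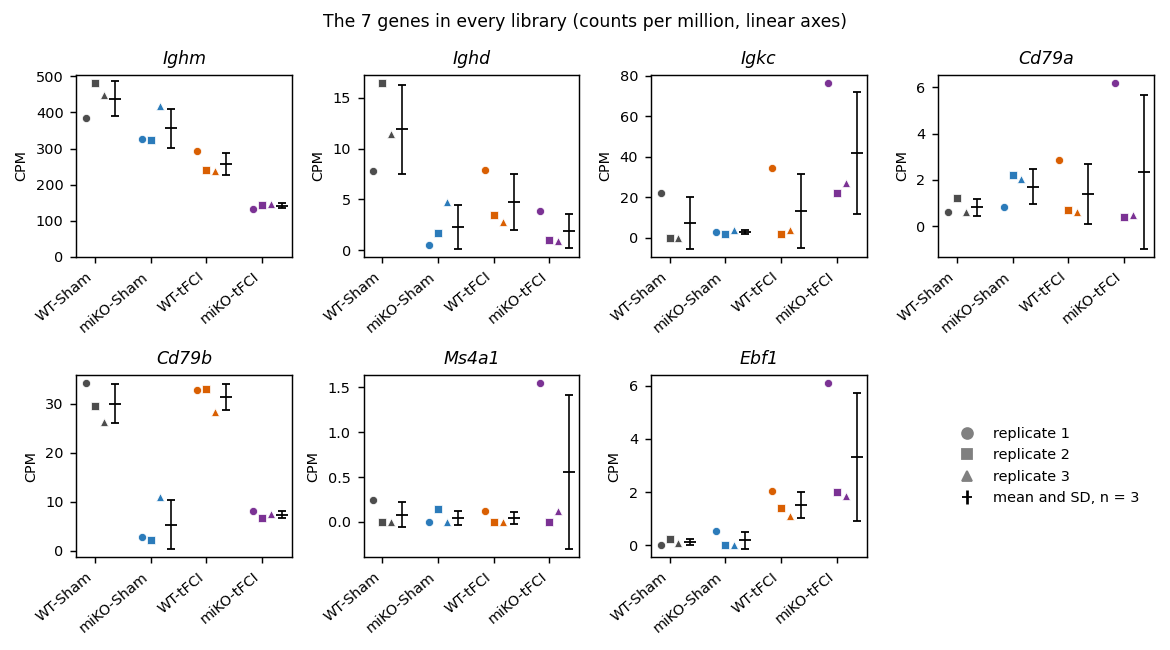
Level of each of the 7 genes in the 12 libraries. Each panel is 1 gene, the vertical axis is CPM on a linear scale that differs between panels, the marker shape gives the replicate, and the black bars beside the points are the mean and SD of the 3 libraries. Ighm lies between 134 and 482 CPM, Cd79b separates the WT groups (26.3 to 34.3 CPM) from the miKO groups (2.08 to 11.0 CPM), and Igkc, Cd79a, Ms4a1 and Ebf1 reach their highest level in miKO-tFCI replicate 1.

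Ighd, which is spliced from the same primary transcript as Ighm in mature B cells, was present at a small part of the level of Ighm. It was at 7.81, 16.5 and 11.4 CPM in WT-Sham, at 0.555, 1.66 and 4.74 CPM in miKO-Sham, at 7.90, 3.46 and 2.80 CPM for WT-tFCI and at 3.82, 1.01 and 0.865 CPM for miKO-tFCI. The lowest WT-Sham library was above all 3 miKO-Sham libraries, as was so for 16.2% of all tested genes, and also above all 3 miKO-tFCI libraries. Neither tested comparison was passed by Ighd, with a log2 fold change of -1.29 (SE 0.67, edgeR adjusted p = 0.239) in miKO-tFCI vs. WT-tFCI and of -0.38 (SE 0.73, edgeR adjusted p = 0.704) in miKO-tFCI vs. miKO-Sham. As a description, the difference was -2.32 (SE 0.65) in miKO-Sham vs. WT-Sham and -1.41 (SE 0.62) in WT-tFCI vs. WT-Sham. Of the 10 annotated entries nearest to Ighm, 5 on each side, those other than Ighd had at most 37 counts each over all 12 libraries.

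The counts on V, D and J segments were few beside those on Ighm in WT-Sham. All heavy-chain V segments together had 8, 3 and 4 counts in WT-Sham, 2, 2 and 14 in miKO-Sham, 52, 6 and 16 in WT-tFCI and 166, 66 and 108 in miKO-tFCI. Per 1000 counts on Ighm and the switched constant genes (Ighg, Ighe and Igha) this made 0.698 to 2.41 V counts in WT-Sham, 0.852 to 4.22 in miKO-Sham, 2.84 to 18.7 in WT-tFCI and 48.1 to 81.1 in miKO-tFCI. The miKO-tFCI libraries were above those of every other group on both scales, the group in which Ighm was lowest.

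The heavy-chain J segments ran the other way. Their summed counts were 15, 41 and 69 in WT-Sham, 12, 10 and 20 in miKO-Sham, 10, 8 and 4 in WT-tFCI and 0, 9 and 5 in miKO-tFCI. Of these, Ighj1, the segment printed above, had 14, 27 and 49 counts in WT-Sham, 0, 2 and 13 in miKO-Sham, 4, 4 and 2 in WT-tFCI and 0, 3 and 2 in miKO-tFCI. Per 1000 Ighm counts the J segments stood at 4.68 to 15.8 in WT-Sham and at 0 to 7.85 in miKO-tFCI, so that these groups overlapped. The D segment Ighd4-1 had 2, 1 and 2 counts in WT-Sham and 0 in the 9 other libraries, and each of these counts is too low for a comparison.

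The V segments differed in how they were spread over the libraries. Ighv5-9 had 48 counts, all in miKO-tFCI replicate 1, and 38 of the 39 counts of Ighv5-16 were in miKO-tFCI replicate 2. Ighv1-26, with 45 counts, was seen in 5 of the 6 tFCI libraries. In all, 41 heavy-chain V segments and 59 kappa V segments had a count in at least 1 library. V segments resemble each other in sequence, so that the counting could split their reads, and the sums are the safer values.

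**Figure D2:**
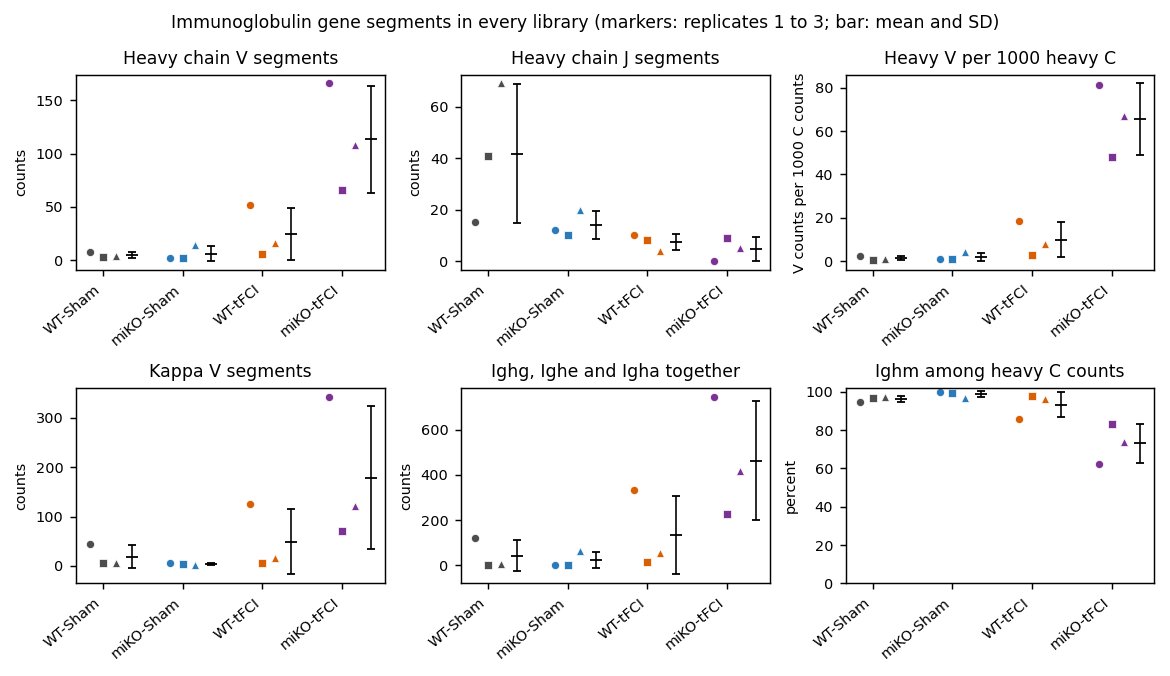
Immunoglobulin segments beside Ighm in every library. The panels plot the counts on heavy-chain V, heavy-chain J and kappa V segments, the counts on Ighg, Ighe and Igha together, the heavy-chain V counts per 1000 counts on Ighm, Ighg, Ighe and Igha, and the percent of heavy-chain constant counts on Ighm, by group, with marker shapes for replicates and bars for mean and SD (n = 3). V segments stand at 48.1 to 81.1 per 1000 in miKO-tFCI and at 18.7 or less elsewhere, while the J segments reach 69 counts in WT-Sham.

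Igkc, the constant region of the kappa light chain, followed neither Ighm nor Ighd. It was at 22.2, 0 and 0.205 CPM in WT-Sham, at 2.78, 1.80 and 3.97 CPM in miKO-Sham, at 34.5, 1.73 and 4.02 CPM for WT-tFCI and at 76.5, 22.0 and 26.9 CPM for miKO-tFCI. Replicate 1 was far above the other libraries in WT-Sham, WT-tFCI and miKO-tFCI, and the 3 miKO-tFCI libraries were above all of miKO-Sham, as was so for 26.5% of all tested genes. In miKO-tFCI vs. miKO-Sham it was higher by a log2 fold change of 3.69 (SE 0.83, edgeR adjusted p = 0.00263), at 2.63 without miKO-Sham replicate 1 and 4.94 without miKO-Sham replicate 3. Against WT-tFCI the log2 fold change was 2.35 (SE 0.72, edgeR adjusted p = 0.0540), at 1.14 within batch 1 and 3.08 within batch 2, and this p fell below 0.05 under 9 of 19 alternative settings.

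Igkc counts per Ighm count were 0 to 0.0578 in WT-Sham, 0.00556 to 0.00953 in miKO-Sham, 0.00716 to 0.118 in WT-tFCI and 0.153 to 0.570 in miKO-tFCI. In WT-Sham there were 185, 0 and 2 Igkc counts beside 3203, 4299 and 4363 Ighm counts. In a B or plasma cell both chains are made together, and which cells the Ighm counts came from was not tested. Kappa V segments moved with Igkc, at 45, 5 and 7 counts in WT-Sham, 7, 3 and 2 in miKO-Sham, 125, 5 and 17 in WT-tFCI and 343, 71 and 122 in miKO-tFCI. Lambda V segments had 0 to 2 counts in the sham libraries, 24, 0 and 3 in WT-tFCI and 60, 0 and 27 in miKO-tFCI.

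The other constant genes were considered together with Jchain, the small protein that joins IgM and IgA into polymers. Of 10 such genes on the list 4 had enough counts for the test, while the others had few or no counts. In miKO-tFCI vs. WT-tFCI 1 of the 4 passed as higher (of all tested genes, 4.08%). In miKO-tFCI vs. miKO-Sham all 4 did (of all tested genes, 21.9%), and none was lower in either. The 4 genes passed the filter on low counts mainly through the tFCI libraries, so these counts say nothing on the genes as a group. Igha, the constant region of IgA, was at 13.9, 0 and 0.103 CPM in WT-Sham, 0, 0 and 7.81 CPM in miKO-Sham, 38.2, 1.50 and 6.58 CPM for WT-tFCI and 67.1, 28.3 and 40.9 CPM for miKO-tFCI, a log2 fold change of 3.79 (SE 1.15, edgeR adjusted p = 0.0157) in miKO-tFCI vs. miKO-Sham that lost its call under 3 of 19 alternative settings. Jchain was higher by 3.97 (log2, SE 1.04, edgeR adjusted p = 0.00663) in the same comparison and by 3.15 (log2, SE 0.95, edgeR adjusted p = 0.0484) in miKO-tFCI vs. WT-tFCI, where its groups overlapped and the call was lost under 8 of 19 alternative settings, among them the replicate block (3.0, edgeR adjusted p = 0.0534).

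Ighg2c, a constant region of IgG, had 0 counts in every sham library and 174 counts in miKO-tFCI, none of them in replicate 2, which makes it at least 50.1-fold higher than in miKO-Sham when 3 counts over that group are taken as the limit (edgeR adjusted p = 0.00895). Iglc1, a lambda constant region, passed the same comparison with overlapping groups (log2 fold change 3.82, SE 1.41, edgeR adjusted p = 0.0399) and did so under 9 of 18 alternative settings. Ighm made up 96.2% ± 1.51 (SD, n = 3) of the heavy-chain constant counts in WT-Sham, 98.7% ± 1.48 (SD, n = 3) in miKO-Sham, 93.4% ± 6.47 (SD, n = 3) in WT-tFCI and 73.1% ± 10.4 (SD, n = 3) in miKO-tFCI, and the miKO-tFCI libraries did not reach the lowest library of any other group.

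Monocyte markers moved with these counts, and so did markers of other cells given below. The summed level of 9 monocyte markers was 12.8 to 101 CPM for WT-Sham, 63.4 to 116 CPM in miKO-Sham, 65.9 to 217 CPM for WT-tFCI and 343 to 649 CPM in miKO-tFCI, and it was highest in replicate 1 of WT-Sham, WT-tFCI and miKO-tFCI. In miKO-tFCI vs. WT-tFCI 4 of the 9 passed as higher, and 6 did in miKO-tFCI vs. miKO-Sham. Of 9 neutrophil markers tested 6 and 4 passed as higher in these comparisons, with 0 and 1 lower. Of all tested genes, 4.08% and 21.9% were called higher in these comparisons, and 4.71% and 13.9% lower. The summed level of all 10 on the list was 636 to 1359 CPM for WT-Sham, 1097 to 1134 CPM in miKO-Sham, 491 to 587 CPM for WT-tFCI and 918 to 1259 CPM in miKO-tFCI, and in both tFCI groups it was lowest in replicate 1, where Igkc was highest. Csf3r, the marker called lower, had the highest mean level of the list, at 485 CPM, so these sums hide the course of other markers. S100a8, the next highest, had 2265, 192 and 135 counts in WT-Sham and 643, 801 and 550 in miKO-Sham. After tFCI it had 459, 548 and 532 counts in WT and 2553, 2646 and 2411 in miKO. The summed level of 13 T and NK cell markers was 2.56 to 18.3 CPM over all libraries. The part of these cells in the counts on Igkc, Igha, Jchain and the V segments was not tested.

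CD79A and CD79B form the pair of signalling chains of the B cell receptor, and their mRNAs were far from equal in the WT libraries. Cd79b was at 34.3, 29.6 and 26.3 CPM in WT-Sham, at 2.78, 2.08 and 11.0 CPM in miKO-Sham, at 32.9, 33.0 and 28.4 CPM for WT-tFCI and at 8.05, 6.66 and 7.42 CPM for miKO-tFCI. All 6 WT libraries lay above all 6 miKO libraries, and within the miKO-Sham group replicate 3 was the highest. Cd79b was lower in miKO-tFCI than in WT-tFCI by a log2 fold change of -2.09 (SE 0.38, edgeR adjusted p = 0.00343), at -2.0 within batch 1 and -2.09 within batch 2.

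As a description, Cd79b differed by -2.49 (log2, SE 0.40) between miKO-Sham and WT-Sham and by 0.07 (log2, SE 0.35) between WT-tFCI and WT-Sham. In miKO-tFCI vs. miKO-Sham the log2 fold change was 0.47 (SE 0.42, edgeR adjusted p = 0.394), and without miKO-Sham replicate 3 it was 1.63 (edgeR adjusted p = 0.000173). Set against the microglial marker sum, Cd79b stood at 0.604 to 1.21 CPM per 1000 CPM in the 6 WT libraries and at 0.0585 to 0.560 in the 6 miKO libraries, again without overlap between WT-tFCI and miKO-tFCI.

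Cd79a was at 0.601, 1.23 and 0.616 CPM in WT-Sham, at 0.833, 2.22 and 2.05 CPM in miKO-Sham, at 2.87, 0.693 and 0.609 CPM for WT-tFCI and at 6.19, 0.377 and 0.494 CPM for miKO-tFCI. With 162 counts in all 12 libraries, 60 of them in miKO-tFCI replicate 1, every group overlapped with every other. Neither tested comparison was passed, at a log2 fold change of 0.54 (SE 0.83, edgeR adjusted p = 0.725) in miKO-tFCI vs. WT-tFCI and -0.22 (SE 0.86, edgeR adjusted p = 0.857) in miKO-tFCI vs. miKO-Sham. In the former the sign turned without miKO-tFCI replicate 1, to -1.50 (edgeR adjusted p = 0.403).

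Per kilobase of exon, the level of Cd79b was 21.0 CPM in WT-Sham, 3.70 CPM in miKO-Sham, 22.0 CPM for WT-tFCI and 5.15 CPM in miKO-tFCI, against 0.560, 1.17, 0.955 and 1.62 CPM for Cd79a. On the same scale Ighm stood at 232, 189, 137 and 75.2 CPM, Ighd at 6.26, 1.22, 2.48 and 0.998 CPM and Igkc at 14.1, 5.36, 25.2 and 78.6 CPM. Ighm was thus the highest of the 7 genes in the first 3 groups, while in miKO-tFCI the mean of Igkc was close to that of Ighm, with a spread over libraries that reached to both sides of it.

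**Figure D3:**
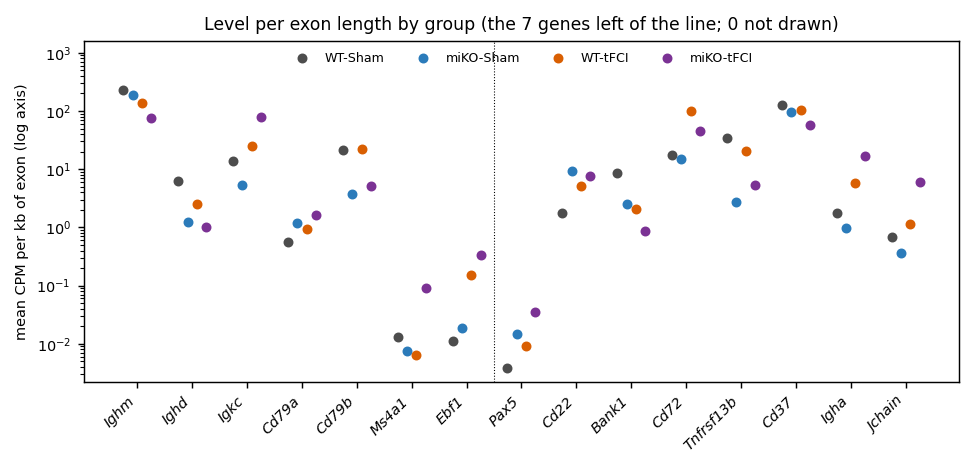
Level per kilobase of exon by group. The horizontal axis lists the 7 genes to the left of the dotted line and 8 other B cell or immunoglobulin genes to the right, the vertical axis is the mean CPM per kilobase of annotated exon on a logarithmic scale, and points are the means of the 4 groups (n = 3 libraries each, spread not drawn). Among the 7, Ighm stands between 75.2 and 232 CPM per kilobase, Cd79b between 3.70 and 22.0, and Ms4a1 at 0.0901 or less.

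The promoters of Cd79a and Ebf1 were the 2 of 7 in the RefSeq table used here (build GRCm38.p6). That of Cd79a is shown because EBF1, the product of another of the 7 genes, is known to switch it on in early B cells, while the Cd79a level was at most 2.87 CPM in the libraries other than miKO-tFCI replicate 1. The 250 bases before the start are at chr7:24897247-24897496 on the plus strand, and the capitals mark 3 motifs. RefSeq and GENCODE place the start differently, so that the GENCODE start given above lies within this window.
Cd79a promoter: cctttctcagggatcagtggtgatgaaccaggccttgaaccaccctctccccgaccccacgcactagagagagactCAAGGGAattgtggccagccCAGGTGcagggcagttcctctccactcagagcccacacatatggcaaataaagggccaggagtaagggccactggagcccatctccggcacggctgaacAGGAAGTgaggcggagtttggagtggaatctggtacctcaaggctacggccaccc

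On both strands, the letters CAAGGGA (an EBF-type site) were found once, at -174 from the start, CAGGTG (an E box) at -154 and AGGAAGT (an ETS-type site) at -55. Of 32851 promoters of the same length, 4.21%, 17.2% and 7.69% held these motifs. The octamer ATGCAAAT, in 1.6% of promoters, was not among the letters of this window. The motifs do not overlap each other, and such a match is a description of the sequence only.

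Ebf1, the transcription factor that sets early B cells on their course, was close to 0 in the sham groups and higher after tFCI. It was at 0, 0.224 and 0.103 CPM in WT-Sham, at 0.555, 0 and 0 CPM in miKO-Sham, at 2.03, 1.39 and 1.10 CPM for WT-tFCI and at 6.09, 2.01 and 1.85 CPM for miKO-tFCI. All 6 tFCI libraries lay above all 6 sham libraries, and between WT-tFCI and WT-Sham 27% of all tested genes were higher without overlap. In counts, miKO-tFCI held 90 against 4 in miKO-Sham, a ratio of 19.4 after scaling for depth (exact 95% interval 7.33 to 72.8). The edgeR test called Ebf1 higher at an adjusted p of 0.00146. Ebf1 passed the filter on low counts only through the tFCI libraries, so this p is not independent of its level there. The 4 miKO-Sham counts were all in replicate 1.

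Between miKO-tFCI and WT-tFCI, with 90 and 38 counts, Ebf1 had a log2 fold change of 0.98 (SE 0.66, edgeR adjusted p = 0.370) and overlapping groups. As a description, the ratio of WT-tFCI to WT-Sham was 13.6 (exact 95% interval 4.30 to 68.6), from 38 and 3 counts. Ebf1 is also used by pericytes and other mural cells of vessels, and a list of 12 mural markers moved with it. Their summed level was 4.21 to 9.02 CPM in WT-Sham and 6.15 to 11.4 CPM in miKO-Sham. It was 45.1 to 92.2 CPM for WT-tFCI and 53.8 to 155 CPM in miKO-tFCI. All 6 mural markers that could be tested were higher in miKO-tFCI than in miKO-Sham, as were 21.9% of all tested genes. In miKO-tFCI vs. WT-tFCI 2 were higher and 1 lower (of all tested genes, 4.08% and 4.71%). Some of the 6 passed the filter on low counts only through the tFCI libraries, such as Cspg4, with 0 counts in every sham library. The rise was not particular to mural markers. All 8 endothelial markers were also higher in miKO-tFCI than in miKO-Sham, with sums of 114 to 304 CPM against 12.9 to 20.9 CPM. The part of any of these cells in the level of Ebf1 was not tested.

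Ms4a1, which encodes the B cell surface protein CD20, had too few counts for the test. It had 2 counts in WT-Sham, 1 in miKO-Sham, 1 in WT-tFCI and 16 in miKO-tFCI, where 15 were in replicate 1 and 1 in replicate 3. The ratio of miKO-tFCI to WT-tFCI, 15.7, had an exact 95% interval of 2.44 to 658 and rested on that library. Cd79a, Igkc and the V segments were also highest in that library.

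Among the 6 of the 7 genes that could be tested, 2 were called lower (Ighm and Cd79b) and 0 higher in miKO-tFCI vs. WT-tFCI. Among all 16451 tested genes, 4.71% were called lower and 4.08% higher there. In miKO-tFCI vs. miKO-Sham, 2 were called higher (Igkc and Ebf1) and 1 lower (Ighm), where 21.9% of all tested genes were called higher and 13.9% lower. A gene was called at an adjusted p below 0.05 together with a log2 fold change of more than 0.58 in either direction. The 6 genes passed the filter on low counts partly through the group in which they were high, so these counts say nothing on the genes as a group.

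**Figure D4:**
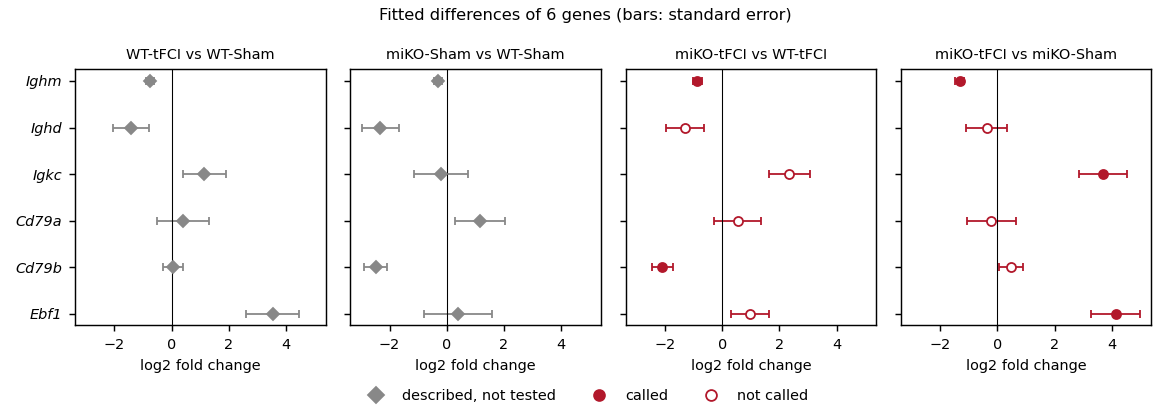
Log2 fold changes of the 6 genes with enough counts. Each panel is a comparison of 2 groups, the horizontal axis is the log2 fold change from edgeR, and the bars are ± 1 SE. Filled circles passed the test and open circles did not, while grey diamonds in the comparisons with WT-Sham are a description without a test. Ighm is at -0.86 and -1.33 and Cd79b at -2.09 where they passed.

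Across the 12 libraries, log2 CPM of Ighm was related to that of Ighd with Pearson's r of 0.60, to Cd79b with 0.29, to Cd79a with -0.03, to Igkc with -0.71 and to Ebf1 with -0.85. Ighd and Cd79b had an r of 0.77, and Cd79a and Cd79b one of -0.17. These values describe libraries that fall into 4 groups and share the batches, and no p is given. The genes with the pattern most like Ighm over the 12 libraries were Cnpy3 (r = 0.98), Gm29487 (0.98), Slc2a5 (0.98), a fructose transporter, Atp8a2 (0.98) and Gm34280 (0.98), and the most opposite was Gm6477 (-0.98), followed by Psmc4 (-0.96), a proteasome subunit. None of the 5 genes most like Ighm is an immunoglobulin or B cell gene on the lists used here. Among those most like Cd79b were Tmem44 (0.97), Fat3 (0.95), Zfp512b (0.95) and Cds1 (0.95), and the most opposite was Mmp2 (-0.95), a matrix metalloproteinase.

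Other genes of B cell identity did not move as a block, and several of those with high counts were surface proteins that myeloid cells also carry. Of a list of 21 such genes besides the 7, 9 had enough counts for the test. In miKO-tFCI vs. WT-tFCI 1 was higher and 7 lower (of all genes, 4.08% and 4.71%). In miKO-tFCI vs. miKO-Sham 2 were higher and 3 lower (of all genes, 21.9% and 13.9%). In miKO-Sham vs. WT-Sham 1 was higher and 5 lower (of all genes, 8.58% and 6.8%). In WT-tFCI vs. WT-Sham 2 were higher and 5 lower (of all genes, 20.9% and 11.7%). The median log2 fold changes of the 9 were -0.89, -0.40, -0.83 and -0.71 in this order, beside 0.04, 0.03, 0.04 and 0.02 over all tested genes.

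Cd22, an inhibitory sialic acid receptor of B cells and of microglia, was at 8.53 to 9.19 CPM for WT-Sham, 45.6 to 47.3 CPM in miKO-Sham, 20.1 to 29.5 CPM for WT-tFCI and 28.6 to 47.7 CPM in miKO-tFCI. It was higher in miKO-Sham than in WT-Sham by a log2 fold change of 2.41 (SE 0.18, edgeR adjusted p = 4.90e-07), the opposite sign to Cd79b. In miKO-tFCI vs. WT-tFCI it was higher by 0.59 (log2, SE 0.16, edgeR adjusted p = 0.0347), just past the size needed, and it kept that call under 7 of 20 alternative settings.

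Tnfrsf13b, which encodes the receptor TACI for the B cell factors BAFF and APRIL, shared with Cd79b the order of WT above miKO. It was at 67.9, 106 and 118 CPM in WT-Sham, 6.25, 7.21 and 9.48 CPM in miKO-Sham, 50.0, 65.3 and 60.2 CPM for WT-tFCI and 12.2, 13.4 and 20.3 CPM for miKO-tFCI. The log2 fold change was -3.65 (SE 0.18, edgeR adjusted p = 1.23e-08) in miKO-Sham vs. WT-Sham and -1.94 (SE 0.17, edgeR adjusted p = 1.12e-05) in miKO-tFCI vs. WT-tFCI, and all WT libraries were above all miKO libraries. Unlike Cd79b, Tnfrsf13b was also called higher in miKO-tFCI vs. miKO-Sham (log2 fold change 1.00, SE 0.19, edgeR adjusted p = 0.000683). Bank1, a scaffold of B cell receptor signalling, was lower in all 4 comparisons, by log2 fold changes of -1.98 and -1.54 after tFCI in WT and miKO and of -1.78 and -1.34 between miKO and WT after sham surgery and tFCI, with SEs of 0.21 to 0.23.

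Cd72, a co-receptor that dampens B cell signals, rose after tFCI in both genotypes, by a log2 fold change of 2.48 (SE 0.13, edgeR adjusted p = 7.22e-09) in WT and 1.57 (SE 0.13, edgeR adjusted p = 6.15e-07) in miKO. It was lower in miKO-tFCI than in WT-tFCI (-1.14, SE 0.13, edgeR adjusted p = 6.52e-05). Cd37, a tetraspanin, Ralgps2, Fcrl1, an Fc receptor-like protein, and H2-Ob, a modulator of peptide loading on MHC class II, were lower in miKO-tFCI vs. WT-tFCI by log2 fold changes of -0.89, -0.88, -0.76 and -1.04 (edgeR adjusted p between 0.000858 and 0.0278), and Fcrl1 lost this call under 6 of 20 alternative settings. By contrast Pax5, the factor that keeps B cells committed, had 15 counts in all 12 libraries, 9 of them in miKO-tFCI replicate 1.

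**Figure D5:**
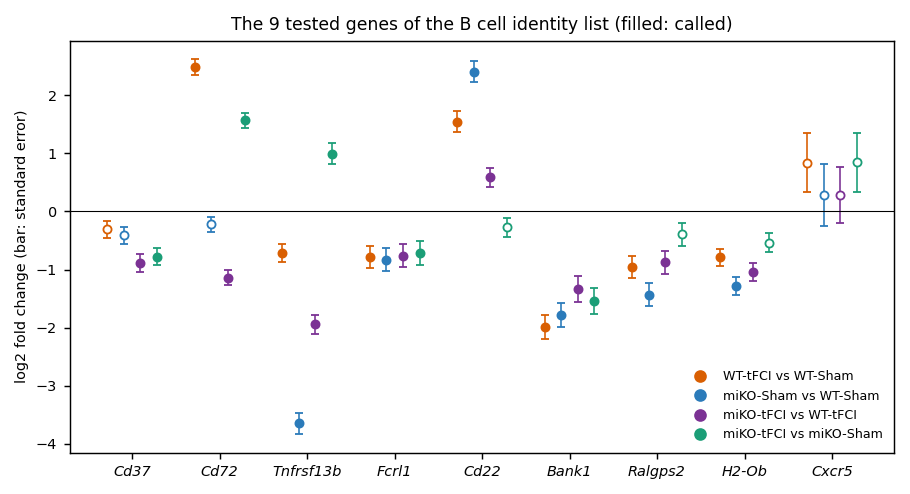
Log2 fold changes of the 9 tested genes of the B cell identity list. The vertical axis is the log2 fold change from edgeR with bars of ± 1 SE, colours are the 4 comparisons, and filled symbols passed the test. Tnfrsf13b reaches -3.65 and Cd22 2.41 in miKO-Sham vs. WT-Sham, in opposite directions, and Cxcr5, a chemokine receptor, passed in none.

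Genes of early B cell precursors were scarce apart from those that other cells also use. Of 10 genes listed, 5 could be tested. In miKO-tFCI vs. miKO-Sham 3 were higher (of all genes, 21.9%), and in miKO-Sham vs. WT-Sham 2 were lower (of all genes, 6.8%). In WT-tFCI vs. WT-Sham 1 was higher and 2 lower (of all genes, 20.9% and 11.7%). Il7r, the receptor chain for interleukin 7, was at 35.5, 26.2 and 21.7 CPM in WT-Sham against 0.694, 0.694 and 2.69 CPM in miKO-Sham (log2 fold change -4.27, SE 0.45, edgeR adjusted p = 1.18e-05), and at 7.96 to 17.2 CPM for WT-tFCI and 8.42 to 28.1 CPM in miKO-tFCI. Sox4, a transcription factor of many progenitors, was at 11.8 to 26.5 CPM in miKO-Sham and at 142 to 173 CPM in WT-Sham (log2 fold change -3.05, SE 0.31, edgeR adjusted p = 7.05e-06).

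Among plasma cell genes, 11 of the 12 listed could be tested. In miKO-tFCI vs. WT-tFCI 1 was higher (Jchain) and 1 lower (of all genes, 4.08% and 4.71%). In miKO-tFCI vs. miKO-Sham 3 were higher and 2 lower (of all genes, 21.9% and 13.9%). In miKO-Sham vs. WT-Sham 1 was higher and 1 lower (of all genes, 8.58% and 6.8%). In WT-tFCI vs. WT-Sham 3 were higher and 2 lower (of all genes, 20.9% and 11.7%). Sdc1, the surface proteoglycan that marks plasma cells and is also found on epithelial cells and some macrophages, was at 0 to 0.896 CPM in the sham libraries, 2.56 to 11.6 CPM for WT-tFCI and 11.0 to 23.2 CPM in miKO-tFCI, and passed the test in miKO-tFCI vs. miKO-Sham (log2 fold change 5.72, SE 0.89, edgeR adjusted p = 0.000157). Tnfrsf17, the plasma cell receptor BCMA, followed Ighm instead, at 18.0 to 30.2 CPM for WT-Sham, 12.3 to 18.3 CPM in miKO-Sham, 4.63 to 8.02 CPM for WT-tFCI and 0.989 to 2.68 CPM in miKO-tFCI. It was lower in miKO-tFCI vs. WT-tFCI by a log2 fold change of -1.71 (SE 0.32, edgeR adjusted p = 0.00446). Xbp1, the secretory factor of plasma cells that most cells use, was at 271 to 372 CPM in all libraries and passed in no comparison.

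Of 23 further transcription factors of the B lineage 18 were tested, and 0 were higher and 4 lower in miKO-tFCI vs. WT-tFCI, 4 higher and 7 lower in miKO-tFCI vs. miKO-Sham, 0 and 7 between miKO-Sham and WT-Sham, and 3 and 6 in WT-tFCI vs. WT-Sham. Irf4, which drives plasma cell formation, was at 4.15 to 6.25 CPM in WT-Sham and 0.277 to 1.25 CPM in miKO-Sham (log2 fold change -2.93, SE 0.54, edgeR adjusted p = 0.00131). Id3, an inhibitor of the E proteins on which B cells depend, was at 23.8 to 88.9 CPM in WT-tFCI and at 3.37 to 5.15 CPM in WT-Sham (log2 fold change 3.25, SE 0.43, edgeR adjusted p = 4.03e-05).

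Of 30 genes of B cell receptor signalling besides Cd79a and Cd79b, 27 were tested, and most of them serve immune receptors of myeloid cells as well. In miKO-tFCI vs. WT-tFCI 3 were higher and 8 lower (of all genes, 4.08% and 4.71%). In miKO-tFCI vs. miKO-Sham 4 were higher and 13 lower (of all genes, 21.9% and 13.9%). In miKO-Sham vs. WT-Sham 5 were higher and 7 lower (of all genes, 8.58% and 6.8%). In WT-tFCI vs. WT-Sham 4 were higher and 4 lower (of all genes, 20.9% and 11.7%). No list was tested as a set. Cd81, a tetraspanin of the B cell co-receptor that is found on most cells, was higher in miKO-Sham vs. WT-Sham by a log2 fold change of 1.96 (SE 0.17, edgeR adjusted p = 1.64e-06). Fyn, a Src family kinase, was lower in the same comparison (-1.43, SE 0.28, edgeR adjusted p = 0.00212), and Lyn, a kinase next to the receptor, was higher (0.77, SE 0.18, edgeR adjusted p = 0.00737).

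Proteins that bind immunoglobulin made up the last list, of 12 genes with 8 tested. In miKO-tFCI vs. WT-tFCI 1 was higher and 2 lower (of all genes, 4.08% and 4.71%). In miKO-tFCI vs. miKO-Sham 3 were higher and 1 lower (of all genes, 21.9% and 13.9%). In miKO-Sham vs. WT-Sham 5 were higher and 1 lower (of all genes, 8.58% and 6.8%). In WT-tFCI vs. WT-Sham 3 were higher and 1 lower (of all genes, 20.9% and 11.7%). Cd5l, a macrophage protein that travels bound to the IgM polymer, was at 0 to 1.68 CPM for WT-Sham, 2.82 to 3.33 CPM in miKO-Sham, 60.8 to 93.8 CPM for WT-tFCI and 22.4 to 61.2 CPM in miKO-tFCI. It rose after tFCI by a log2 fold change of 6.52 (SE 0.39, edgeR adjusted p = 1.67e-08) in WT, where Ighm was lower. Its lower level in miKO-tFCI vs. WT-tFCI (-0.87, SE 0.26, edgeR adjusted p = 0.0463) missed the threshold with the replicate block (edgeR adjusted p = 0.0524). Fcgrt, the neonatal Fc receptor that recycles IgG, was higher in miKO-tFCI vs. WT-tFCI by 0.76 (log2, SE 0.14, edgeR adjusted p = 0.00405), at 235 to 316 CPM against 138 to 185 CPM.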

How the data were processed

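Microglia of 4 groups (3 libraries each) were measured by bulk RNA-seq (SMART-Seq v4). The authors deposited 1 table of raw counts per gene and library. The submitters' processing notes name FastQC 0.11.9, Trim Galore, HISAT2 2.2.1, SAMtools and HTSeq 1.99.2, and the builds mm10 and GRCm38.p6. Ambiguous, unaligned and no-feature counts (45.3% to 52.5% had no feature) were left out. Of 55401 identifiers, 55141 matched GENCODE M21.

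Counts were tested with edgeR 4.0.16 in R 4.3.3 (filterByExpr by group, which left 16451 genes, TMM, quasi-likelihood test, group and batch as terms, all 12 libraries). Benjamini-Hochberg adjustment ran over all tested genes, and a call needed an adjusted p below 0.05 and an absolute log2 fold change above 0.58. SE is the absolute log2 fold change divided by the root of F. CPM per kilobase used the union of annotated exons. DESeq2 1.42.0 served as an alternative, and the fit was tested on simulated data.

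The members, gene lists and tests were chosen with earlier results of these data known. The rule named all 7 genes, any gene of the immunoglobulin, B cell identity and precursor lists with at least 10 counts, and of other lists at most 5 genes by size of a called change and 3 by mean level. Same-numbered libraries of miKO-tFCI and WT-tFCI deviated together (correlations 0.666, 0.334 and 0.324). This is a hint of pairing only, because replicate 1 alone was in batch 1 in both groups. A batch 1 library that stands apart would by itself tend to give positive values for all 3 numbers. Libraries with unlike numbers were not compared. Promoters and their build are from RefSeq. Values of some genes that the rule names are not reported here.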

Additional observations from a re-analysis of the deposited data

Results flagged for a closer look

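For the following 9 genes from the lists described above, the effect of genotype differed between sham and tFCI by a test of the difference itself (edgeR quasi-likelihood test of the interaction, adjusted over all 16451 genes, of which 3.82% were called). Other genes of the lists were also called but are not described here. The interaction is the log2 fold change of miKO vs. WT after tFCI minus that after sham surgery.

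The interaction was positive for Il7r at 4.59 (SE 0.58, edgeR adjusted p = 0.000553), Sox4 at 2.23 (SE 0.41, edgeR adjusted p = 0.00731), Tnfrsf13b at 1.71 (SE 0.24, edgeR adjusted p = 0.00135) and Fyn at 1.67 (SE 0.37, edgeR adjusted p = 0.0209). These genes were lower in miKO than in WT after sham surgery. After tFCI the log2 fold change of miKO vs. WT was 0.33 for Il7r and 0.24 for Fyn, while it stayed negative for Sox4 at -0.82 and for Tnfrsf13b at -1.94. Of these 4 genes, only Tnfrsf13b passed the test after tFCI.

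It was negative for Cd5l at -2.69 (SE 0.55, edgeR adjusted p = 0.0134), Fcgr4, an activating Fc receptor, at -2.13 (SE 0.34, edgeR adjusted p = 0.00283), Cd22 at -1.82 (SE 0.24, edgeR adjusted p = 0.000680), Cd81 at -1.02 (SE 0.23, edgeR adjusted p = 0.0238) and Cd72 at -0.92 (SE 0.18, edgeR adjusted p = 0.00974). Under alternative settings the call was lost for Cd5l in 1 of 18, for Cd72 in 3 of 19, for Cd81 in 7 of 19 and for Fyn in 6 of 19. With 3 libraries in each group, single libraries were not tested for standing apart.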

How the results depend on the processing

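Ighm kept its calls in miKO-tFCI vs. WT-tFCI (log2 fold change -0.96 to -0.74, adjusted p up to 0.0125) and in miKO-tFCI vs. miKO-Sham (-1.40 to -1.21, up to 0.000501) under all 20 alternatives, and so did Cd79b in miKO-tFCI vs. WT-tFCI (-2.21 to -2.01, up to 0.0181). As a description, Ighm was at -0.95 in WT-tFCI vs. WT-Sham with batch 2 alone and at -0.57 in miKO-Sham vs. WT-Sham without TMM, which moved the median of all genes there by -0.27. The replicate block in place of batch changed no call of the 7 genes, and among other named genes in miKO-tFCI vs. WT-tFCI it ended those of Jchain and Cd5l. It left Ighm at -0.86 and -1.32, and at -0.76 and -0.30 against WT-Sham, with 7, 6, 8 and 5 called genes of B cell identity. Cd79a turned to -0.60 in miKO-tFCI vs. WT-tFCI with batch 2 alone (leaving out 1 library each, -1.50 to 1.09), and in miKO-tFCI vs. miKO-Sham to 0.49 without the batch term (-1.92 to 0.36). Ighd ran from -1.40 to 0.73 there, positive without miKO-Sham replicate 3. Over all genes, 1446 were called in miKO-tFCI vs. WT-tFCI, against 701 without the batch term, 2193 without the filter on low counts, 2535 with only these groups and 616 to 1667 with 1 library left out. The cause of these shifts was not tested. Ms4a1, Cd79a and Ebf1 are limited by counts.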
